A study of Mus musculus with 6 samples.

Results

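The 10 genes described here encode the building blocks of microtubules and 1 protein that keeps these blocks apart. They are the α-tubulin genes *Tuba1a*, *Tuba1b*, *Tuba1c* and *Tuba4a*, the β-tubulin genes *Tubb2a*, *Tubb4b*, *Tubb5* and *Tubb6*, the γ-tubulin gene *Tubg1* and the stathmin gene *Stmn1*. They were taken from the gene count table by symbol, from a list drawn up with earlier results of these data known. All 10 were found among the 24499 genes of the table, and all 10 were among the 13296 genes with enough counts to be tested. The libraries came from in vitro germinal center B cells (iGCBs), which are splenic naïve B cells grown with 1 ng/ml IL-4 over a feeder layer of 40LB cells. 40LB is a fibroblast line of BALB/c 3T3 origin that expresses CD40L together with BAFF, and it had been irradiated with 120 Gy. YFP+ iGCBs were sorted after 3 days. The donors of the 3 cKO libraries were *Eif3e* fl/fl and carried *Cγ1* Cre together with the *Rosa26-YFP* LSL reporter. By the study's description of its mouse lines, the donors of the 3 control libraries carried the Cre and the reporter without the floxed *Eif3e* alleles, whereas the labels say only control. Both groups were of C57BL/6J background and shared Cre and YFP, and how many mice gave each library and their age and sex are not given in the sources used here. *Cγ1* Cre is made in activated B cells that transcribe the immunoglobulin γ1 constant region, so YFP marks cells in which Cre has acted and not loss of eIF3e protein as such.

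α- and β-tubulin form the dimer from which microtubules grow, and γ-tubulin, within a ring-shaped complex, is the template on which new microtubules start. Mammals have several genes, called isotypes, for α- and β-tubulin, which differ mainly in the last residues of the protein, the tail that motors and modifying enzymes touch. Stathmin binds free dimers and promotes microtubule shrinkage, and its phosphorylation in mitosis switches this activity off while the spindle is built. Cells also tune tubulin mRNA to the pool of free dimers. When free dimers are in excess, the protein TTC5 recognizes the start of a nascent tubulin chain on the ribosome and, through SCAPER and the CCR4-NOT deadenylase, the mRNA is degraded.

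Because TTC5 acts on the start of the nascent chain, the first 24 coding bases of each gene, which encode it, are shown, read from the GENCODE M21 transcripts on GRCm38, with the first 4 codons in capitals. *Tubb6* is named only.
Tuba1a: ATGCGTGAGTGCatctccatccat
Tuba1b: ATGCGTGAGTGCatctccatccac
Tuba1c: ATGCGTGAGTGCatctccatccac
Tuba4a: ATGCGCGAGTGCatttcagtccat
Tubb2a: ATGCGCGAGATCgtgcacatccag
Tubb4b: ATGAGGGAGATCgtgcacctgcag
Tubb5: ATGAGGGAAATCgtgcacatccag
Tubg1: ATGCCGAGAGAAatcatcacccta
Stmn1: ATGGCATCTTCTgatattcaggtg
The capitals are identical in *Tuba1a*, *Tuba1b* and *Tuba1c*, and *Tuba4a* differs from them only by a synonymous codon. Those of *Tubb2a*, *Tubb4b* and *Tubb5* differ from each other only by synonymous codons, and *Tubg1* and *Stmn1*, which are not targets of TTC5, start with other codons.

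Over the whole coding sequence, *Tuba1a* and *Tuba1b* were 98.3% identical, *Tuba1b* and *Tuba1c* 97.9% and *Tuba1a* and *Tuba1c* 97.1%. *Tuba4a* was 84.8% to 85.3% identical to the 3 others. Of all stretches of 100 bases in the transcript, 65.1% in *Tuba1a*, 69.5% in *Tuba1b* and 53.4% in *Tuba1c* also occurred without a mismatch in a transcript of another gene. The same share was 36.9% in *Tubb2a*, mostly through its neighbour *Tubb2b*, 29.2% in *Tubb4b* and 26.1% in *Stmn1*, both mostly through pseudogenes, 4.11% in *Tubg1*, and 0 in *Tuba4a*, *Tubb5* and *Tubb6*. Counts of the 3 *Tuba1* genes, of *Tubb2a* and *Tubb2b*, and to a lesser degree of *Tubb4b* and *Stmn1*, therefore include reads that could be split among near-identical copies, and how the authors' quantification split them is not given in the sources used here.

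The libraries held 39079582 to 45504570 estimated counts. Levels are in CPM, that is, counts brought to a common library total and scaled by edgeR's TMM factors, with the mean ± SD of 3 libraries. *Eif3e*, the deleted gene, was at 406 ± 16.5 CPM in control iGCBs and 158 ± 13.1 CPM in cKO iGCBs, or 0.390 times the control level by edgeR's fit over the whole gene. The summed level of 7 B cell markers lay between 4481 and 4837 CPM in every library, although all 7 passed the adjusted p of 0.05, 4 higher and 3 lower in cKO. Over all genes tested, 24.5% were lower and 24.1% were higher at this threshold, which is the background for each marker count here. That of 5 germinal center B cell markers lay between 261 and 274 CPM in cKO and between 305 and 356 CPM in control libraries, with none at 0, 3 lower and 1 higher. That of 6 plasma cell markers lay between 646 and 788 CPM in cKO and between 831 and 852 CPM in control libraries. Of the 5 that were tested, 3 were lower and 2 were higher, and *Jchain*, the joining chain of secreted antibodies, fell from 116 ± 27.0 to 7.25 ± 2.33 CPM (adjusted p = 1.58e-06 by edgeR) while *Sdc1*, the plasma cell surface marker CD138, rose from 4.70 ± 0.852 to 14.2 ± 1.04 CPM (adjusted p = 2.06e-05). What part these markers' shift had in the results below was not tested. The sum of 17 fibroblast markers lay between 412 and 472 CPM in cKO and between 412 and 545 CPM in control libraries, most of it *Vim*, with *Postn* and *Lum* at 0. Of these 17 markers, 14 were tested and 2 were higher and 1 was lower in cKO. T cell markers summed to at most 0.487 CPM, and myeloid markers to between 9.90 and 13.6 CPM. Of 3 tested myeloid markers, 1 was higher and 0 were lower. The higher one was the macrophage gene *Adgre1*, at 4.61 ± 0.953 CPM in cKO against 1.18 ± 0.735 CPM in control (adjusted p = 0.00203 by edgeR). *Cd68* (log2 fold change −0.32, groups without overlap) and *Itgam* (−1.08, groups overlapping) leaned the other way and did not pass. *Cd14* was at 0 in every library. *Xist* had 53272 counts in cKO replicate 2, 58899 and 70912 counts in control replicates 1 and 2, and at most 16 counts in the other libraries, so it was high in 1 of 3 cKO and 2 of 3 control libraries.

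Tubulin isotypes did not change as a block. The most abundant α- and β-tubulin mRNAs, *Tuba1b* and *Tubb5*, did not differ detectably between cKO and control iGCBs, while *Tuba1a*, *Tuba1c*, *Tubb4b*, *Tubb2a* and *Stmn1* fell to between 62.3% and 77.9% of the control level and *Tubb6* rose to 164%. In libraries made from bulk cells, fewer cells of a type and less RNA per cell cannot be told apart. With edgeR's quasi-likelihood test and Benjamini-Hochberg adjustment over all genes tested, 6 of the 10 genes passed an adjusted p of 0.05, of which 5 were lower and 1 was higher. Over all genes tested the same threshold was passed by 48.6%, with 24.5% lower and 24.1% higher, so passing it was common in this comparison. With the study's added requirement of a 1.5-fold change, 3 genes were lower and 1 was higher, against 21% of all genes tested. CPM of the 2 groups did not overlap for 7 of the 10 genes, as was the case for 58.7% of all genes tested. The median log2 fold change (cKO over control) was −0.23 over the 10 genes and −0.00402 over all genes tested, which describes the list and is not a test of it. An exact permutation test of 3 libraries against 3 cannot give a p below 0.1 and was not used.

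**Figure D1:**
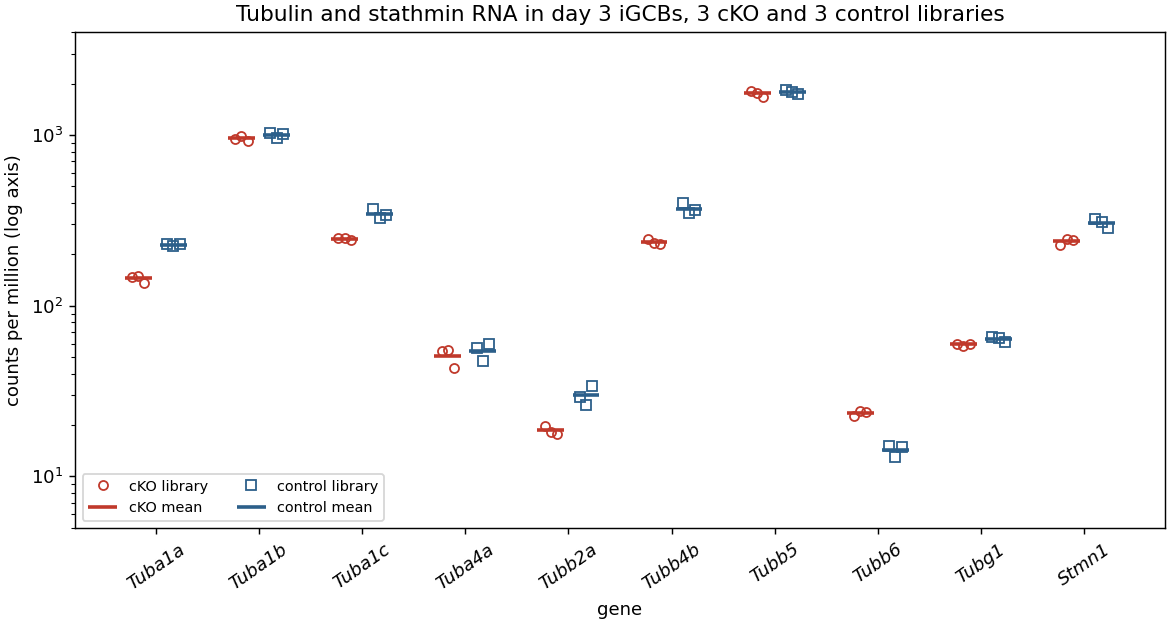
CPM (log axis) of each gene in the 3 cKO libraries (red circles) and the 3 control libraries (blue squares), with the group mean as a line. The groups lie apart for *Tuba1a*, *Tuba1c*, *Tubb2a*, *Tubb4b*, *Tubb6* and *Stmn1*, narrowly apart for *Tubg1*, and overlap for *Tuba1b*, *Tuba4a* and *Tubb5*.

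To set the genes in order, CPM was divided by transcript length in kilobases. In control iGCBs the order from high to low was *Tubb5* at 673 ± 17.1 CPM per kilobase, *Tuba1b* at 574 ± 20.3, *Stmn1* at 288 ± 18.9, *Tubb4b* at 232 ± 17.4, *Tuba1c* at 174 ± 10.7, *Tuba1a* at 126 ± 2.05, *Tubg1* at 35.3 ± 1.30, *Tuba4a* at 19.2 ± 2.22, *Tubb2a* at 18.5 ± 2.44 and *Tubb6* at 8.13 ± 0.639. Of the neighbours in this order, *Tuba4a* and *Tubb2a* overlapped between libraries and the others did not. In cKO iGCBs the order was the same except at its lower end. There, *Tubb6* at 13.4 ± 0.530 CPM per kilobase stood above *Tubb2a* at 11.6 ± 0.664, and the libraries of these neighbours did not overlap.

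Among α-tubulins, the 2 minor *Tuba1* isotypes fell while the dominant one did not differ detectably. *Tuba1a*, an isotype best known from neurons, had 148, 150.0 and 136 CPM in the cKO libraries and 230.2, 224 and 229.7 CPM in the control libraries. The libraries of a group lay close together and the groups far apart. The log2 fold change was −0.66 (SE 0.0534, adjusted p = 8.09e-06 by edgeR), or 63.4% of the control level. *Tuba1c* had 248, 250.2 and 242 CPM in the cKO libraries and 367, 325 and 341 CPM in the control libraries. The groups again lay apart, with a log2 fold change of −0.48 (SE 0.0550, adjusted p = 6.16e-05 by edgeR), which is short of 1.5-fold. *Tuba1b*, the ubiquitous isotype, had 953, 990.2 and 923 CPM in the cKO libraries and 1026, 961 and 1017 CPM in the control libraries. These overlapped, with a log2 fold change of −0.07 and a 95% confidence interval from −0.17 to 0.03 (adjusted p = 0.250 by edgeR), an interval that does not reach the intervals of *Tuba1a* (−0.78 to −0.54) and *Tuba1c* (−0.60 to −0.36). The 3 genes lie within 106686 bases of chromosome 15, *Tuba1b* at chr15:98931425-98934565 and *Tuba1a* at chr15:98949837-98953703 on the minus strand and *Tuba1c* at chr15:99029891-99038110 on the plus strand of GRCm38. For every 100 counts of *Tuba1b*, *Tuba1a* had 15.5, 15.1 and 14.7 counts in the cKO and 22.4, 23.3 and 22.6 counts in the control libraries. That ratio moved little within a group. Given the shared stretches described above, the difference between the *Tuba1* genes rests on the reads that fell in the parts that tell them apart, and how far the division of shared reads shaped it was not tested.

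*Tuba4a*, on chromosome 1 (chr1:75214228-75219865, minus strand), is the α-tubulin isotype whose gene does not encode the terminal tyrosine that other α-tubulins carry. It had 54.3, 54.9 and 43.3 CPM in the cKO libraries and 56.6, 47.6 and 59.7 CPM in the control libraries. The groups overlapped, and the log2 fold change of −0.10 had a confidence interval from −0.35 to 0.14 (adjusted p = 0.477 by edgeR). It was the only one of the 10 genes with more than 1 transcript in the transcript table. NM_009447 made up 91.2%, 91.8% and 93.3% of the gene's counts in cKO replicates 1 to 3 and 89.2%, 66.4% and 86.4% in control replicates 1 to 3. Control replicate 2 thus stood apart, and there the difference was taken up by NM_001313723, with 549 counts against 97 and 34 in the other control libraries and 0, 25 and 16 in the cKO libraries. In edgeR's test over 18040 transcripts, of which 25.1% passed an adjusted p of 0.05, none of the 3 *Tuba4a* transcripts did, and 0 had an unadjusted p below that value (adjusted p = 0.138 for NM_001313723, 0.797 for NM_001313724 and 0.856 for NM_009447). The log2 fold change of NM_001313723 was −4.17 (SE 1.70) with all libraries and −2.26 without control replicate 2, and with DESeq2 this transcript alone passed (adjusted p = 0.0171).

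Among the 4 β-tubulins, *Tubb4b* and *Tubb2a* were lower, *Tubb6* was higher and the dominant *Tubb5* did not differ detectably. *Tubb5*, the main β-tubulin of dividing cells (chr17:35833921-35838306, minus strand), had 1823, 1751 and 1680.5 CPM in the cKO libraries and 1825, 1789 and 1735 CPM in the control libraries. The groups overlapped, and the log2 fold change of −0.03 had a confidence interval from −0.12 to 0.07 (adjusted p = 0.640 by edgeR). This was the narrowest interval of the 10 genes. *Tubb4b*, a widely expressed isotype also used in cilia (chr2:25222160-25224702, minus strand), had 247, 233 and 230.5 CPM in the cKO libraries and 401, 347 and 362 CPM in the control libraries. It fell by 0.64 on the log2 scale (SE 0.0619, adjusted p = 2.10e-05 by edgeR), to 64.0% of the control level, with no overlap between groups. Without control replicate 1, which had the highest value, the log2 fold change was −0.583 and no longer reached 1.5-fold, while the adjusted p was 0.000126.

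*Tubb2a* (chr13:34074274-34078007, minus strand), an isotype abundant in neurons and less expressed here, had 19.8, 18.3 and 17.7 CPM in the cKO libraries and 29.2, 26.3 and 34.0 CPM in the control libraries. The groups did not overlap, and the log2 fold change was −0.68 (SE 0.110, adjusted p = 0.000563 by edgeR). Without control replicate 3, the highest library, it was −0.576 with an adjusted p of 0.00237, again short of 1.5-fold. Its neighbour *Tubb2b*, 48740 bases away and 96.5% identical in the coding sequence, fell as well, from 30.8 ± 3.64 to 20.2 ± 1.95 CPM (log2 fold change −0.61, SE 0.112, adjusted p = 0.00127 by edgeR). Since these genes share reads, their changes are not separate observations.

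Promoter sequence is shown for *Tubb5* and *Tubb4b*, the most abundant β-tubulin and the most abundant of those that fell, as the 250 bases before the start site given by RefSeq on GRCm38.p6. Capitals mark CCAAT on either strand, the box bound by the factor NF-Y and common in genes of the cell cycle.
Tubb5 (chr17:35838302-35838551, minus strand): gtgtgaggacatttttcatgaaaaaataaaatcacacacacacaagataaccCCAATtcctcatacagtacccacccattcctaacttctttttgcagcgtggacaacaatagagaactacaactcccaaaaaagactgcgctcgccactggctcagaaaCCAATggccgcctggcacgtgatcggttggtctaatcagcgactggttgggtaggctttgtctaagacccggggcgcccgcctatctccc
Tubb4b (chr2:25224703-25224952, minus strand): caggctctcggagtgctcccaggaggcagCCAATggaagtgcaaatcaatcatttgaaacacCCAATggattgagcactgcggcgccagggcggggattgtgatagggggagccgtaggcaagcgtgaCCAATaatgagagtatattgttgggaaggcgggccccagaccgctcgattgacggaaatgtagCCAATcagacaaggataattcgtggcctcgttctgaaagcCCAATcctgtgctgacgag
*Tubb4b* held 5 matches and *Tubb5* held 2. In the promoter window of 300 bases, *Tuba1a* and *Tuba1c* held 1 each and *Tuba1b*, *Tuba4a* and *Tubb2a* held 0, and 37.9% of 27025 promoters in the table held at least 1. A match describes the letters and is not a bound site.

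*Tubb6*, a minor and structurally divergent β-tubulin isotype on chromosome 18 (67390717 to 67402749, plus strand), was the only one of the 10 genes that rose. It had 22.5, 24.2 and 23.9 CPM in the cKO libraries and 14.98, 13.0 and 14.9 CPM in the control libraries. All cKO libraries lay above all control libraries, and the log2 fold change was 0.72 (SE 0.0994, adjusted p = 0.000213 by edgeR). For every 100 counts of *Tubb5*, *Tubb6* had 1.23, 1.38 and 1.42 counts in the cKO libraries and 0.821, 0.727 and 0.859 counts in the control libraries. No stretch of 100 bases of its transcript occurred in another gene's transcript. The feeder cells are fibroblasts, which the sort for YFP+ cells should remove, and 2 fibroblast markers, both genes of the extracellular matrix, were higher in cKO as well. *Fn1* rose from 19.2 ± 4.84 to 40.3 ± 5.79 CPM (log2 fold change 1.07, adjusted p = 0.000651 by edgeR), and *Fbn1* had 207, 139 and 172 counts in the cKO and 0 in each control library. *Lox*, another matrix gene of the list, was lower (log2 fold change −1.52, adjusted p = 0.0271 by edgeR). Its groups overlapped, and its call was lost on leaving out a library, with an adjusted p of up to 0.106. The other 11 tested markers did not pass. With the mean level of the fibroblast markers as a covariate, the log2 fold change of *Tubb6* was 0.72 (adjusted p = 0.000365 by edgeR). This mean lay between 2.19 and 2.60 log2 CPM in cKO and between 1.87 and 2.67 in control libraries. It overlapped between groups, so this fit could hardly take up a group difference. A covariate of *Fn1* and *Fbn1* alone was not run, and what part feeder RNA had was not tested.

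**Figure D2:**
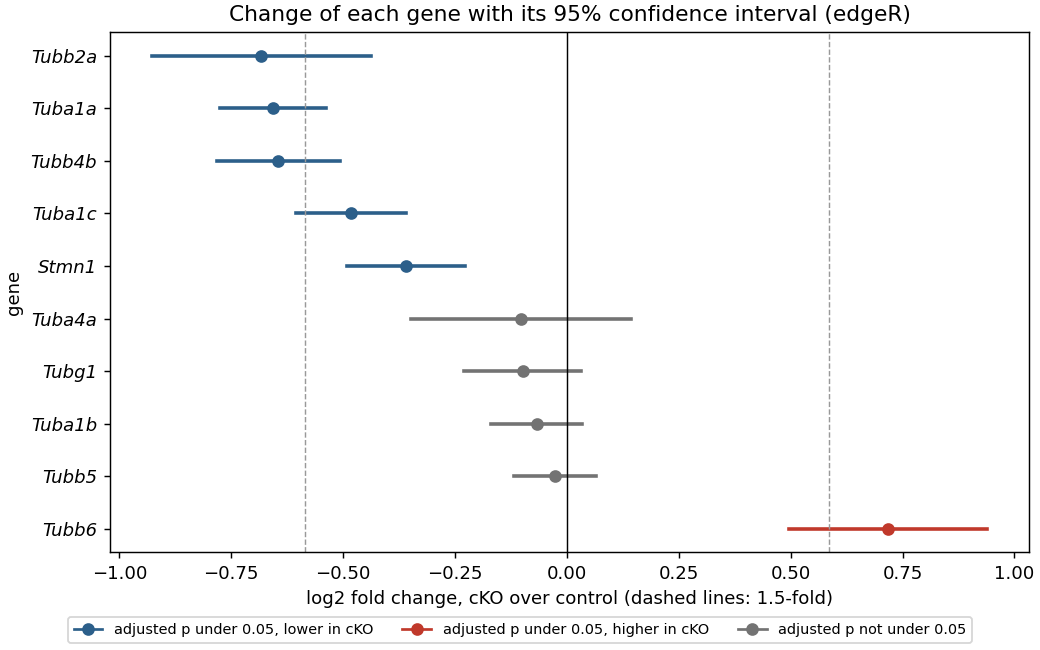
log2 fold change (cKO over control) of each gene from edgeR's fit, with its 95% confidence interval. The intervals of *Tubb2a*, *Tuba1a*, *Tubb4b*, *Tuba1c* and *Stmn1* lie below 0, that of *Tubb6* lies above 0, and those of *Tuba4a*, *Tubg1*, *Tuba1b* and *Tubb5* include 0.

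The summed levels moved less than the isotypes that changed. The 4 α-tubulin genes described here together held 1628 ± 63.7 CPM in control and 1397 ± 51.2 CPM in cKO iGCBs, a log2 ratio (cKO over control) of −0.22. *Tubb2a*, *Tubb4b*, *Tubb5* and *Tubb6* together held 2197 ± 64.7 CPM in control and 2030.4 ± 79.9 CPM in cKO iGCBs, a log2 ratio of −0.11. *Tubb2b*, *Tubb3* and *Tubb4a* are outside this sum. How reads were divided among the genes of a sum does not change it, but how reads were divided with genes outside it, such as *Tubb2b* or pseudogenes, does. Within the sums the makeup shifted toward the dominant isotype. Per kilobase, *Tuba1b* was 71.1% ± 0.343 of the α-tubulin sum in cKO and 64.3% ± 0.354 in control libraries, *Tuba1a* 10.4% ± 0.246 and 14.1% ± 0.318, *Tuba1c* 16.1% ± 0.298 and 19.4% ± 0.586, and *Tuba4a* 2.32% ± 0.229 and 2.15% ± 0.184. Only the share of *Tuba4a* overlapped between groups. *Tubb5* was 79.2% ± 0.249 of the sum of these 4 β-tubulin genes in cKO and 72.3% ± 1.27 in control libraries, *Tubb4b* 17.8% ± 0.225 and 24.8% ± 1.13, *Tubb2a* 1.38% ± 0.0285 and 1.99% ± 0.288, and *Tubb6* 1.61% ± 0.118 and 0.873% ± 0.0622. None of these 4 shares overlapped between groups. Shares add up to a whole, so a share can rise because others fell, as for *Tuba1b* and *Tubb5*, whose own levels did not differ detectably.

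**Figure D3:**
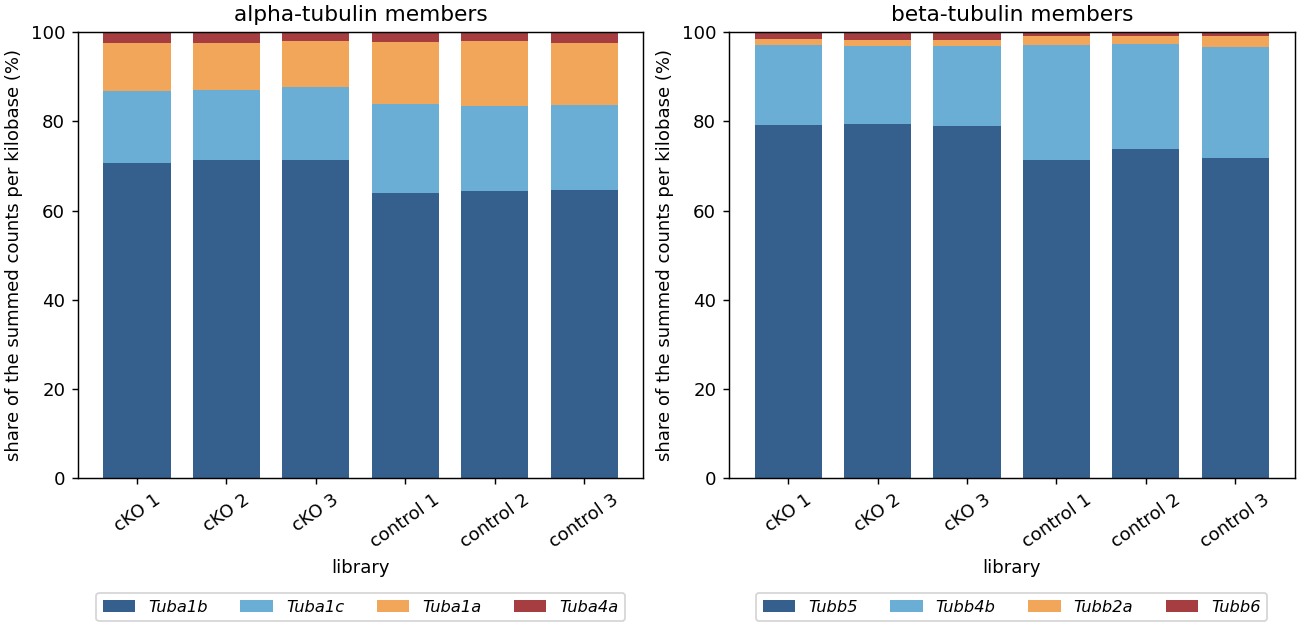
Share of each isotype (percent, from 0 to 100) in the summed counts per kilobase of the 4 α-tubulin genes (left) and the 4 β-tubulin genes (right), 1 bar per library. The dark blue share of *Tuba1b* and *Tubb5* is larger in each of the 3 cKO bars than in any control bar.

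The 2 γ-tubulin genes, 29487 bases apart on chromosome 11 and both on the plus strand, differed in their change. *Tubg1* (chr11:101119938-101126419), the γ-tubulin expressed in most cells, had 60.0, 58.4 and 59.7 CPM in the cKO libraries and 65.2, 64.6 and 60.9 CPM in the control libraries. The cKO libraries lay just below the control libraries, but the log2 fold change of −0.10 (95% confidence interval −0.23 to 0.03) did not pass (adjusted p = 0.195 by edgeR). *Tubg2* (chr11:101155907-101161787), its paralog from the list of other tubulin genes, had 2.45, 2.29 and 2.15 CPM in the cKO libraries and 15.1, 14.3 and 11.9 CPM in the control libraries, or 111, 103 and 91 counts against 680, 563 and 489. It fell 5.99-fold (log2 fold change −2.58, SE 0.151, adjusted p = 1.66e-06 by edgeR), and the confidence intervals of the changes of *Tubg1* and *Tubg2* (−2.92 to −2.25) were far apart. For every 100 counts of *Tubg1* there were 4.08, 3.92 and 3.60 counts of *Tubg2* in the cKO and 23.1, 22.2 and 19.5 counts in the control libraries. The coding sequences were 93.3% identical, and 4.23% of the 100-base stretches of *Tubg2* occurred in another gene. In every library most of the γ-tubulin counts were those of *Tubg1*.

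Of the 8 tested genes that build or dock the γ-tubulin ring, 4 were higher in cKO, 0 were lower (against 24.1% and 24.5% of all genes tested) and the median log2 fold change was 0.17. DESeq2 gave the same counts, and 0 were lower at an unadjusted p of 0.05. The small subunits *Mzt1* (0.28, adjusted p = 0.00143) and *Mzt2* (0.36, adjusted p = 0.0217), the core subunit *Tubgcp2* (0.23, adjusted p = 0.00697) and *Nedd1* (0.27, adjusted p = 0.0265), which brings the ring to the spindle, passed edgeR's test. Each change was below 1.5-fold. *Tubgcp3* (0.10), *Tubgcp4* (−0.16), *Tubgcp5* (−0.12) and *Tubgcp6* (−0.13) did not pass. The count of higher genes was 2 without cKO replicate 2 and 2 without control replicate 3.

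*Stmn1* (chr4:134468320-134473843, plus strand) had 228, 245 and 242 CPM in the cKO libraries and 324, 308 and 284 CPM in the control libraries. The groups did not overlap. The log2 fold change was −0.36 (SE 0.0589, adjusted p = 0.000622 by edgeR), or 77.9% of the control level and short of 1.5-fold. In relation to the dominant β-tubulin, there were 12.5, 14.0 and 14.4 counts of *Stmn1* per 100 counts of *Tubb5* in the cKO and 17.7, 17.2 and 16.4 counts in the control libraries. The other stathmin genes *Stmn2*, *Stmn3* and *Stmn4* had too few counts to be tested, so *Stmn1* was the only stathmin gene that could be tested. Of the 9 tested genes that destabilize or sever microtubules, 5 were lower and 2 were higher, against 24.5% and 24.1% of all genes tested. *Kif2c*, a kinesin that strips dimers from microtubule ends, fell from 46.4 ± 4.25 to 34.1 ± 1.58 CPM (log2 fold change −0.45, adjusted p = 0.00184 by edgeR), and *Katna1*, the severing subunit of katanin, fell by 0.36 on the log2 scale (adjusted p = 0.00427). *Spast*, another severing enzyme, rose from 38.6 ± 1.47 to 57.2 ± 1.70 CPM (log2 fold change 0.57, adjusted p = 8.47e-05), and *Katnal1* by 0.28 (adjusted p = 0.0497). The call of *Katnal1* was near the threshold, and the count of higher genes was 1 without each library in turn except control replicate 2, and also with DESeq2, with scaling by total counts only and with the replicate number as a block.

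Genes of tubulin mRNA autoregulation did not move one way. *Ttc5*, whose protein binds the start of nascent α- and β-tubulin chains, fell from 53.4 ± 1.46 to 44.9 ± 3.42 CPM (log2 fold change −0.25, adjusted p = 0.0185 by edgeR). This call was lost without cKO replicate 1, cKO replicate 2 or control replicate 1, with an adjusted p of up to 0.0685. *Cnot1*, the scaffold of the CCR4-NOT deadenylase, rose from 483 ± 7.59 to 655 ± 14.9 CPM (log2 fold change 0.44, adjusted p = 2.73e-05). *Scaper* (−0.17), *Cnot11* (0.03) and *Cnot10* (0.01) did not pass. *Tuba1a*, *Tuba1b* and *Tuba1c*, printed above with the same first 4 codons, had log2 fold changes of −0.66, −0.07 and −0.48. These genes share many stretches of their transcripts, and what part autoregulation had in their changes was not tested.

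Genes tied to tubulin folding were counted in 2 lists, of chaperones and of cofactors, and the difference between the lists was not tested. Of 15 tested genes of the CCT chaperonin, its helper *Pdcl3* and prefoldin, which fold newly made actin and tubulin, 9 were higher and 2 were lower (24.1% and 24.5% over all genes tested), with a median log2 fold change of 0.34. The largest increases were those of *Pfdn6*, from 33.8 ± 2.77 to 69.8 ± 2.72 CPM (log2 fold change 1.05, SE 0.0777, adjusted p = 4.67e-06 by edgeR), and *Cct6a*, from 194 ± 13.0 to 362 ± 17.4 CPM (log2 fold change 0.90, SE 0.0616, adjusted p = 3.15e-06). The prefoldin subunits *Vbp1* (−0.30, adjusted p = 0.00191) and *Pfdn1* (−0.22, adjusted p = 0.0393) fell. The count of lower genes was 1 without each library in turn except control replicate 1, and 1 with the replicate number as a block. Of 7 tested genes of the cofactor list, which holds *Tbcel* although it is not an assembly cofactor, 3 were lower and 0 were higher by edgeR. The counts were the same at an unadjusted p of 0.05 and by DESeq2, and the median log2 fold change was 0.04. *Tbce*, which acts on α-tubulin, fell from 41.8 ± 1.13 to 27.2 ± 1.94 CPM (log2 fold change −0.62, SE 0.0825, adjusted p = 0.000169), and *Tbcel*, a related protein, from 50.0 ± 6.41 to 35.3 ± 0.609 CPM (log2 fold change −0.50, adjusted p = 0.00171). *Tbcc* was the third (−0.41, adjusted p = 0.0265), and *Tbca* (0.10), *Tbcb* (0.24), *Tbcd* (0.04) and *Arl2* (0.19) did not pass. The call of *Tbcc* was lost without cKO replicate 1, cKO replicate 3 or control replicate 2, with an adjusted p of up to 0.0768. Without cKO replicate 1, 1 gene of this list was higher.

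Among the 11 other tubulin genes, 7 were tested, of which 3 were lower and 1 was higher (24.5% and 24.1% over all genes tested). Besides *Tubg2* and *Tubb2b*, *Tubb4a* was lower, at 2.35 ± 0.688 CPM against 3.98 ± 0.367 (adjusted p = 0.0296 by edgeR), and the δ-tubulin gene *Tubd1*, which serves centrioles, was higher, at 11.5 ± 2.41 CPM against 7.39 ± 0.941 (log2 fold change 0.63, adjusted p = 0.0118). The call of *Tubb4a* was lost without cKO replicate 2, cKO replicate 3, control replicate 1 or control replicate 2, with an adjusted p of up to 0.0884, and that of *Tubd1* without control replicate 1 (adjusted p = 0.05001). The lineage-restricted isotypes *Tuba3a*, *Tuba3b*, *Tuba8* and *Tubb1* had too few counts to be tested.

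Of 19 tested enzymes that modify tubulin, 4 were higher and 4 were lower, both below the shares of 24.1% and 24.5% over all genes tested. *Ttl*, which puts the terminal tyrosine back on α-tubulin, rose from 5.78 ± 0.595 to 9.36 ± 0.343 CPM (log2 fold change 0.70, adjusted p = 0.00177 by edgeR), and the glutamylase *Ttll4* rose by 0.26 (adjusted p = 0.0301). *Ttll1* and *Tpgs1*, subunits of a tubulin polyglutamylase, fell, with log2 fold changes of −0.59 (adjusted p = 0.00441) and −0.53 (adjusted p = 0.000756), while the subunits *Tpgs2* (−0.03, adjusted p = 0.899) and *Nicn1* (−0.11, adjusted p = 0.421) did not pass. The count of higher enzymes was 2 without each library in turn except control replicate 3.

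Of 18 tested genes that act at plus ends or assemble and stabilize microtubules, 6 were higher and 3 were lower, against 24.1% and 24.5% of all genes tested. *Pafah1b1*, a dynein regulator known as LIS1, rose from 199 ± 5.80 to 336 ± 2.62 CPM (log2 fold change 0.76, SE 0.0462, adjusted p = 1.92e-06 by edgeR), and *Camsap1*, which caps minus ends, from 67.6 ± 2.18 to 110.4 ± 3.97 CPM (log2 fold change 0.71). The spindle assembly genes *Tacc3* and *Tpx2* fell, with log2 fold changes of −0.30 (adjusted p = 0.000503) and −0.19 (adjusted p = 0.0210). The call of *Tpx2* was lost on leaving out a library, with an adjusted p of up to 0.0806. The count of lower genes was 1 without control replicate 1 and 4 without control replicate 3. It was 2 without cKO replicate 2, cKO replicate 3 or control replicate 2.

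Of 14 tested genes of mitosis and proliferation, which are kinases and cyclins together with *Mki67*, *Top2a*, *Birc5* and *Cdc20*, 9 were lower and 0 higher (24.5% and 24.1% over all genes tested), with a median log2 fold change of −0.38. DESeq2 gave the same counts, and 1 gene was higher at an unadjusted p of 0.05 by edgeR. *Ccnb2*, a cyclin of mitotic entry, fell from 127 ± 6.12 to 57.2 ± 0.444 CPM (log2 fold change −1.15, SE 0.0555, adjusted p = 6.57e-07 by edgeR), and *Ccnb1* from 125 ± 6.90 to 77.7 ± 3.18 CPM (log2 fold change −0.69). These values stand beside the lower *Tuba1a*, *Tuba1c*, *Tubb2a*, *Tubb4b* and *Stmn1*, and what part the share of dividing cells had in them was not tested. Over all 9 lists, 30 of 102 tested genes were lower and 27 were higher, near the 24.5% and 24.1% of all genes tested, and the median log2 fold change was −0.05.

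**Figure D4:**
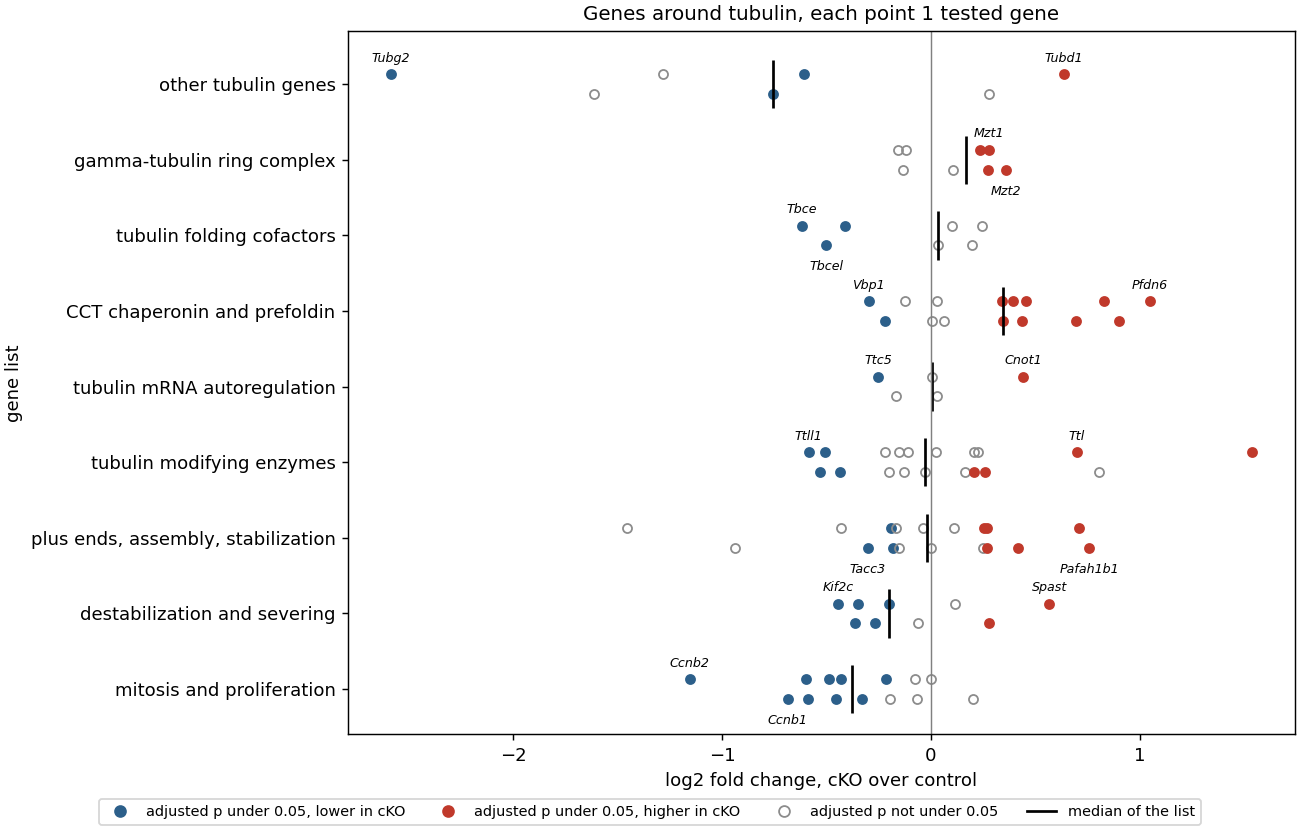
log2 fold change (cKO over control) of each tested gene in 9 lists of genes around tubulin, filled where the adjusted p was under 0.05 (blue lower, red higher), with the median of each list as a black line. *Tubg2* lies farthest left, the CCT chaperonin and prefoldin median is at 0.34 and the median of the genes of mitosis and proliferation at −0.38.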

How the data were processed

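Polyadenylated RNA of sorted YFP+ iGCBs was sequenced in 3 cKO and 3 control libraries. After trimming, the authors aligned with Hisat2, to mm10 by their processing notes, ran StringTie and its prepDE script, and deposited a table of estimated counts for genes and another for RefSeq transcripts. These estimated counts were not normalized and were already whole numbers, so rounding changed nothing. Versions, the read length setting and the strand setting are not given in the sources used here, so overlapping and antisense genes may share reads. The growth protocol names a longer culture than the titles, and the 3 days of the titles were used.

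Groups came from the titles. In edgeR 4.0.16 under R 4.3.3, low genes were removed by filterByExpr (minimum count 10), TMM factors were computed, and cKO was compared with control by the quasi-likelihood test with no covariate. P-values were adjusted after Benjamini and Hochberg over 13296 of 24499 genes or 18040 of 36026 transcripts. Genes with an adjusted p below 0.05 were called, and the study's cutoff of 1.5-fold was counted beside it. The SE is the log2 fold change divided by the square root of the F value. DESeq2 1.42.0 and the other alternatives are given with their effect in the closing section. The fits were also run on simulated counts in which 197 of 13060 genes changed 2-fold. There edgeR recovered 141 of these genes with 10 false calls, and DESeq2 recovered 147 with 33 false calls. Far fewer genes changed in that simulation than were called in these data. Gene positions and coding sequences are from GENCODE M21, promoters from RefSeq, and alignments were made with Biopython 1.88.

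The 10 genes and all lists were chosen with earlier results of these data known. All 10 genes, *Eif3e*, the γ-tubulin ring and autoregulation genes, and in each list up to 2 highest and 2 lowest genes with an adjusted p under 0.05 and a mean of at least 5 CPM are named, with the 3 genes most like *Stmn1* and the 3 most like *Tubb6*. *Tubb4a*, *Tpgs2*, *Nicn1*, the other folding cofactors, single cell type markers and untested genes fall outside this rule and were named after their values were seen. *Matcap1* of the modifying enzymes was not matched by symbol. The study describes its RNA-seq libraries as biological replicates, how many mice gave each is not given in the sources used here, and p-values measure the spread between these libraries.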

Additional observations from a re-analysis of the deposited data

How the results depend on the processing

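Each of the 5 lower genes and *Tubb6* kept its direction and an adjusted p under 0.05 under every alternative run: DESeq2 in place of edgeR, scaling by DESeq2's size factors or by totals alone, a filter of 10 counts in all samples or no such filter, the level of *Xist* or of fibroblast markers as a covariate, the replicate block, and removal of any single library. Without the fold requirement, 5 genes in place of 3 were lower. With each library left out, 2 to 3 genes were lower past both cutoffs and 1 was higher. Whether same-numbered libraries were prepared together is not given in the sources used here. The study used paired t tests for other measures of its iGCB cultures. The correlations of same-numbered deviations from the group means were 0.00851, 0.0839 and 0.133, and only replicate 3 correlated best with its own number. Such low values gave little sign of pairing but cannot exclude it. With the replicate block, 3 genes were lower and 1 was higher past both cutoffs. Of the *Tuba4a* transcripts, NM_001313723 passed with DESeq2 (adjusted p = 0.0171) and not with edgeR, and the cause was not tested. In place of 2, 1 of the destabilizing genes was higher with DESeq2, with total counts only and with the replicate block. In place of 1, 2 of the other tubulin genes were higher with DESeq2 and without control replicate 2. The lowest count of the 10 genes in a library was 511, and whether depth limited their results was not tested. Estimated counts carry the split of shared reads, which no alternative here could change.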

Other observations

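The genes whose pattern over the 6 libraries was most like that of 2 of the genes were listed as a description, by the root mean square difference of log2 CPM after each gene was centred on its own mean, among 8513 genes with a mean of at least 10 CPM. Nearest to *Stmn1* were *Kat5* (0.0258), *Ptger1* (0.0293) and *Ptk2b* (0.0295). *Ptk2b*, a tyrosine kinase, had 460 ± 25.4 CPM in the control and 359 ± 5.40 CPM in the cKO group (mean ± SD of 3 libraries). Nearest to *Tubb6* were *Bid* (0.0287), *Utp6* (0.0350) and *Bzw1* (0.0387). *Bid*, which encodes a pro-apoptotic BCL2 family protein, had 68.2 ± 4.38 CPM in the control and 112 ± 4.32 CPM in the cKO group. With 6 libraries in 2 groups, a gene that changes by a like amount will rank high here.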
